A study of Mus musculus with 24 samples.

Results

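Gbp2, Gbp3, Gbp7, Igtp and Irgm1 are interferon-inducible GTPases of mouse macrophages, and this account follows their RNA while marrow precursors become osteoclasts. They are 5 of the 10721 genes in the deposited table, and 10081 genes, the 5 among them, passed a filter on low values. They were selected on measured values of these same libraries: Gbp7 had a higher level under RANKL than before it, while most interferon-stimulated genes had a lower one. For the 5 genes, their relatives and the listed interferon-stimulated genes, changes from day 0 are therefore described without a test. The tests of the 5 are on the genotype, which the selection did not use, and on its interaction with day. The interaction compares changes from day 0, which the selection did use, between the genotypes. Day 4 was tested against day 0 only over all genes and in other lists.

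The samples were bone marrow cells of female mice 10 to 12 weeks old, expanded for 72 hours in 40 ng/mL mCSF, the growth factor that makes marrow cells into macrophages. Day 0 is the RANKL-naive precursor after that expansion. RANKL, the cytokine that drives osteoclast formation, was then given at 10 ng/mL with 20 ng/mL mCSF for 2, 3 or 4 days, to 25000 cells per well, and 3 wells were pooled for each RNA sample. The KO mice were STING-deficient, lacking the adaptor that passes cytosolic DNA sensing on to type I interferon, and the WT mice had STING. The sources used here do not name the mutant allele. There were 3 mice per genotype (KO mice 481, 528 and 532, WT mice 480, 529 and 531), each sampled at all 4 days, which gave 24 samples in 8 groups of 3.

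GBPs and IRGs are the large families of GTPases that interferons switch on in mouse cells. GBPs, such as Gbp2, Gbp3 and Gbp7, settle on the membranes of pathogen vacuoles and on bacteria and help to start inflammasomes there. IRGs come as effectors that attack vacuoles and as Irgm regulators, among them Irgm1 and Igtp (also called Irgm3), that hold the effectors inactive on the cell's own membranes. Interferons act on the promoters of both families mainly through the interferon-stimulated response element (ISRE) and the gamma-activated site (GAS).

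The GBP genes lay side by side on chromosome 3 (GRCm38, GENCODE vM21): Gbp7 at chr3:142530342-142550149, Gbp3 at chr3:142560026-142573209 and Gbp2 at chr3:142620602-142638008, all protein-coding on the plus strand. The 3 genes together spanned 108 kb. Irgm1 lay at chr11:48861968-48871683 on the minus strand and Igtp at chr11:58199556-58207591 on the plus strand. Igtp overlaps Irgm2 on the same strand, and Gbp7 overlaps the pseudogene Gm43802, also on the same strand. Related stretches also link the genes: Igtp and Irgm2 transcripts matched at 89.9% over 542 bases, Gbp2 and Gbp2b at 83.8% over 1709 bases, and Gbp3 and Gbp7 at 81.5%. Transcripts of Gbp7 and Gm43802 matched at 100% over 637 bases. The labels do not say how reads shared by such genes were counted, and the split between Igtp and Irgm2 is uncertain.

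Because only Gbp7 of the 5 genes was higher than at day 0 in all mice at each RANKL day, the promoters were compared first. RefSeq promoter windows (GRCm38.p6, 250 bases before to 50 bases after the start) were matched for all 5 genes, 6 windows in all, since Gbp3 had 2. Each gene had at least 1 window with the ISRE core GAAANNGAAA, on either strand. It occurred in 3.44% of the 32851 windows of all genes. The sequences below show the core, in capitals, with 8 bases on each side, 5′ to 3′ on the gene's own strand. In Gbp3 and Irgm1 the capitals run over 2 overlapping matches.

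Gbp2 (chr3:142620596-142620621, plus strand): tcttttagTTTCACTTTCactgtctt

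Gbp3 (chr3:142559991-142560022, plus strand): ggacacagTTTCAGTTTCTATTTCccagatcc

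Gbp7 (chr3:142530275-142530300, plus strand): gtgtgcagTTTCAGTTTCagttctcc

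Igtp (chr11:58199514-58199539, plus strand): taggaactGAAACTGAAAgctgttcg

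Irgm1 (chr11:48871427-48871458, minus strand): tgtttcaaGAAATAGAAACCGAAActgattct

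Counted from the RefSeq transcription start, the core began at -59 in Gbp2, -45 in Gbp3, -53 in Gbp7, -34 in Igtp and -30 in Irgm1. The RefSeq start can differ from the GENCODE gene boundary given above, as it does for Irgm1 and Gbp2. The second Gbp3 window, chr3:142560106-142560405, held no match to the ISRE core. The first match in Gbp3 has the same letters as the match in Gbp7.

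The GAS motif TTCNNNGAA, also searched on both strands, was found in the windows of Gbp7, beginning at -106 and -87, and of Igtp, beginning at -45. Among all windows 8.3% held it. The AP-1 motif TGANTCA, bound by the Fos and Jun proteins that RANKL activates, was found in Gbp2 (beginning at -102) and Irgm1 (at -115), against 7.81% of all windows, and not in the Gbp7 window. The full windows of Gbp7 and Igtp are shown because both hold the ISRE core and the GAS motif, with 2 GAS matches in Gbp7 and 1 in Igtp. Whether these motifs bear on the level of either gene was not tested. Capitals mark both motifs.

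Gbp7 (chr3:142530086-142530385, plus strand): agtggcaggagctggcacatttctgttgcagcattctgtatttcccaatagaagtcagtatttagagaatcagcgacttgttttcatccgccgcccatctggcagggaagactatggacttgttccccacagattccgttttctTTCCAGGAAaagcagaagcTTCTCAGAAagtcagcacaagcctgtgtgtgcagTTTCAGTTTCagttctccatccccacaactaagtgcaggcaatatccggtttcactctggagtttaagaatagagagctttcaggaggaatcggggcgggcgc

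Igtp (chr11:58199306-58199605, plus strand): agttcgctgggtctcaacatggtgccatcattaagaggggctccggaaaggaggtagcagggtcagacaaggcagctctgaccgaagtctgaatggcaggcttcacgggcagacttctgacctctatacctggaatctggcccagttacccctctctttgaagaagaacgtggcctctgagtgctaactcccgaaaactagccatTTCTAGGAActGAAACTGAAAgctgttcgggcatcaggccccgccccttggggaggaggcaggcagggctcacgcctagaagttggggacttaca

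Values are FPKM, a fragment count scaled to transcript length and library size, as the authors deposited them. Sting1 RNA, listed as Tmem173, averaged 4.84 ± 0.26 FPKM in KO and 25.2 ± 3.70 FPKM in WT cells at day 0 (SD, n = 3 each). It fell in KO at day 0 (log2 difference -2.15, limma adjusted p = 8.26e-06) and at day 2 (-0.68, adjusted p = 0.0232), and at days 3 and 4, where it did not pass (adjusted p 0.934 and 0.224), all 3 KO values still lay below all 3 WT values. Total read depth is unknown. The size of 1 read's FPKM step, read from low values, put libraries of a day within 0.983 to 1.17 of WT mouse 529, except that 1 read was worth 1.46 times as much in the WT day 3 library of mouse 531, which is shallower. In cells at day 0 the neutrophil markers, 9 genes led by S100a9 and S100a8, summed to 7210 to 12600 FPKM in KO and 5720 to 15600 FPKM in WT, and at day 4 to 119 to 134 FPKM in KO and 71.8 to 157 FPKM in WT. The 7 B cell markers summed to 49.6 to 126 FPKM in KO and 26.1 to 97 FPKM in WT at day 0, and to under 1 FPKM in each library of days 2, 3 and 4, where Ms4a1, Pax5 and Ebf1 were each below 0.1 FPKM. Of the T and NK cell markers the table held Cd4 alone, at 1.46 to 2.53 FPKM in KO and 1.24 to 5.55 FPKM in WT at day 0. The 12 macrophage markers, led by Cd68 and C1qb, summed to 1800 to 7000 FPKM throughout. Between day 0 and day 4, 9 of the 12 fell and 2 rose in each genotype (limma, adjusted p below 0.05). Their median log2 change was -2.69 in KO and -2.77 in WT. Of all genes 40.8% fell in KO and 42.7% in WT. The 10 osteoclast markers summed to 71.9 to 181 FPKM in KO and 106 to 158 FPKM in WT at day 0, against 45500 to 50100 FPKM in KO and 41500 to 48300 FPKM in WT at day 4. The day 0 samples thus held RNA of other marrow cells that the RANKL samples largely lacked. The part of those cells in the changes from day 0 was not tested, and fewer cells of a type cannot be told apart from less RNA per cell in these bulk samples.

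**Figure D1:**
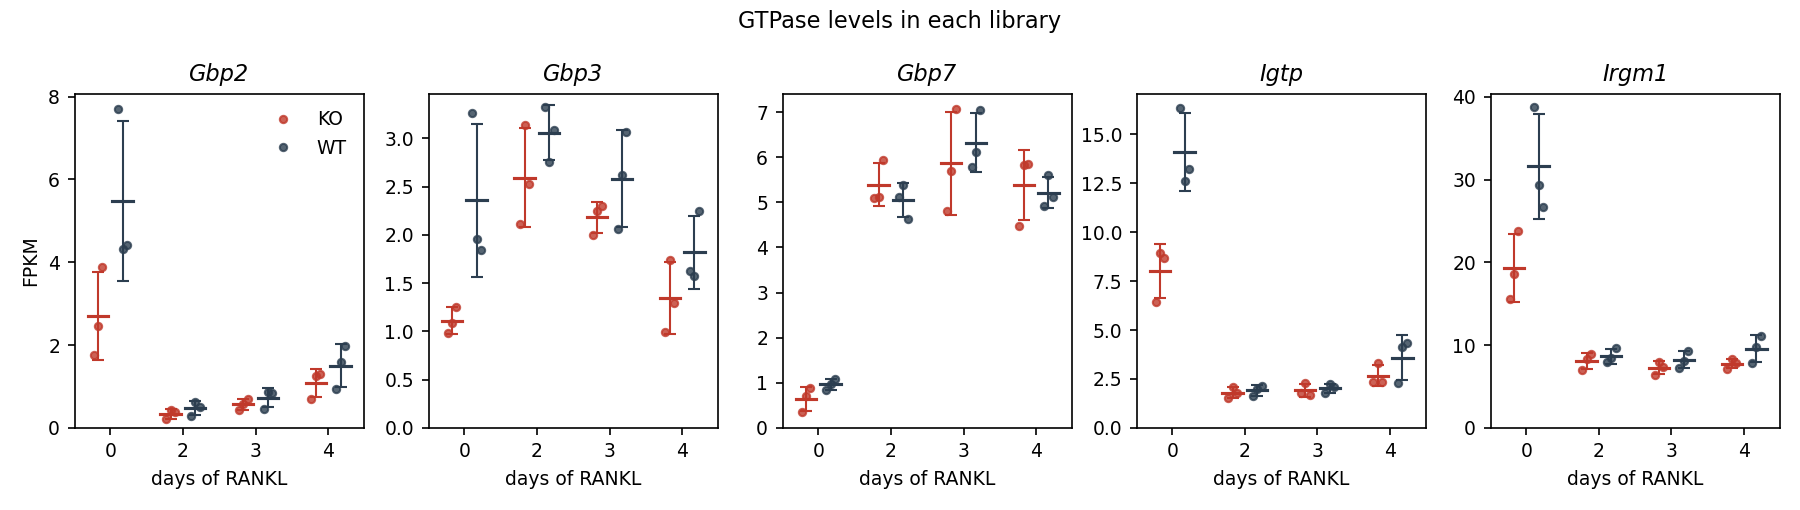
FPKM of Gbp2, Gbp3, Gbp7, Igtp and Irgm1 by days of RANKL, KO (red) left of WT (dark). Points are the 3 mice of a group, horizontal lines the mean and bars the SD; each panel has its own scale from 0, and Gbp7 is the gene whose levels at days 2 to 4 all lie above those at day 0.

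Gbp7, a GBP linked in mouse macrophages to assembly of the NADPH oxidase on vacuoles, was the lowest of the 5 at day 0. It measured 0.358, 0.698 and 0.876 FPKM in KO precursors, against 0.843, 0.981 and 1.09 FPKM in WT precursors, and these ranges overlapped. At day 2 it measured 5.11, 5.12 and 5.95 FPKM in KO and 5.12, 5.39 and 4.64 FPKM in WT. At day 3 the values were 4.82, 5.70 and 7.08 FPKM in KO and 5.79, 6.13 and 7.06 FPKM in WT. At day 4 they were 4.49, 5.83 and 5.86 FPKM in KO and 4.92, 5.61 and 5.13 FPKM in WT. Every RANKL library thus held more Gbp7 than every day 0 library of its genotype, and the genotypes overlapped on each day.

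The mean level of Gbp7 at day 4 was 8.37 times that at day 0 in KO and 5.38 times in WT. Within mice, log2(FPKM + 1) was higher at day 4 than at day 0 by 1.96 ± 0.0816 in KO and 1.66 ± 0.0944 in WT (SD, n = 3 mice each), in all 3 mice of each genotype. Nearly all of that difference was present by day 2, at 1.97 ± 0.174 in KO and 1.62 ± 0.161 in WT. Between days 2 and 4 the level moved little: the day 3 to day 4 step averaged -0.10 in KO and -0.23 in WT. The log2(FPKM + 1) scale understates the change of a gene this low at day 0.

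Gbp3, the gene between Gbp7 and Gbp2 on chromosome 3, followed a different course. Its day 0 level was 0.979, 1.09 and 1.26 FPKM in KO, against 3.27, 1.96 and 1.85 FPKM in WT, with no overlap. At day 2 it measured 2.12, 3.14 and 2.52 FPKM in KO and 3.33, 2.76 and 3.09 FPKM in WT. By day 4 it stood at 0.997, 1.74 and 1.30 FPKM in KO and 1.62, 1.58 and 2.25 FPKM in WT. In KO cells all values of days 2 and 3 lay above those of day 0, with mean changes of 0.76 ± 0.195 and 0.59 ± 0.044 on the log2 scale (SD, n = 3 mice). In WT cells the day 2 and day 3 values overlapped those of day 0 (0.30 ± 0.254 and 0.11 ± 0.522). From day 3 to day 4 Gbp3 was lower in all 6 mice, by a mean log2 step of -0.45 in KO and -0.35 in WT. At day 4 it was close to its starting level, at 1.21 times day 0 in KO and 0.771 times in WT.

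Gbp2, whose lipid anchor (a prenyl group) places it on membranes, was lower under RANKL in every mouse. It measured 1.77, 2.47 and 3.87 FPKM in KO and 7.70, 4.33 and 4.42 FPKM in WT at day 0. At day 2 these were 0.202, 0.428 and 0.380 FPKM in KO and 0.294, 0.633 and 0.499 FPKM in WT. It was then higher in all 6 mice at each later step, and at day 4 it measured 0.706, 1.26 and 1.30 FPKM in KO and 0.940, 1.59 and 1.98 FPKM in WT. The day 4 mean was 0.402 times the day 0 mean in KO and 0.274 times in WT. Of the 5 genes Gbp2 had the deepest dip in relative terms, to 0.124 times day 0 in KO and 0.0867 times in WT at day 2.

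Igtp, a regulatory IRG of the endoplasmic reticulum, measured 6.41, 8.93 and 8.70 FPKM in KO precursors and 16.4, 12.6 and 13.2 FPKM in WT precursors. At day 2 it was at 1.54, 2.10 and 1.76 FPKM in KO and 1.61, 2.00 and 2.14 FPKM in WT. At day 4 it was at 2.34, 3.29 and 2.36 FPKM in KO and 2.28, 4.15 and 4.33 FPKM in WT. All RANKL values lay below all day 0 values in both genotypes. Like Gbp2, Igtp was higher at day 4 than at day 3 in all 6 mice, by a mean log2 step of 0.33 in KO and 0.57 in WT.

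Irgm1, the IRG regulator best known for resistance to mycobacteria and for control of autophagy, was the most abundant of the 5 at each day in both genotypes. It measured 15.6, 18.6 and 23.7 FPKM in KO and 38.8, 29.4 and 26.7 FPKM in WT precursors. At day 4 it measured 7.16, 8.26 and 7.86 FPKM in KO and 7.87, 9.79 and 11.1 FPKM in WT. Its level was nearly flat over the RANKL days, at 8.06, 7.26 and 7.76 FPKM in KO and 8.68, 8.22 and 9.59 FPKM in WT as means of days 2, 3 and 4. The day 4 mean was 0.402 times the day 0 mean in KO and 0.303 times in WT. Irgm1 differed from Gbp2 and Igtp in showing little recovery, with a day 3 to day 4 step of 0.09 in KO and 0.19 in WT.

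**Figure D2:**
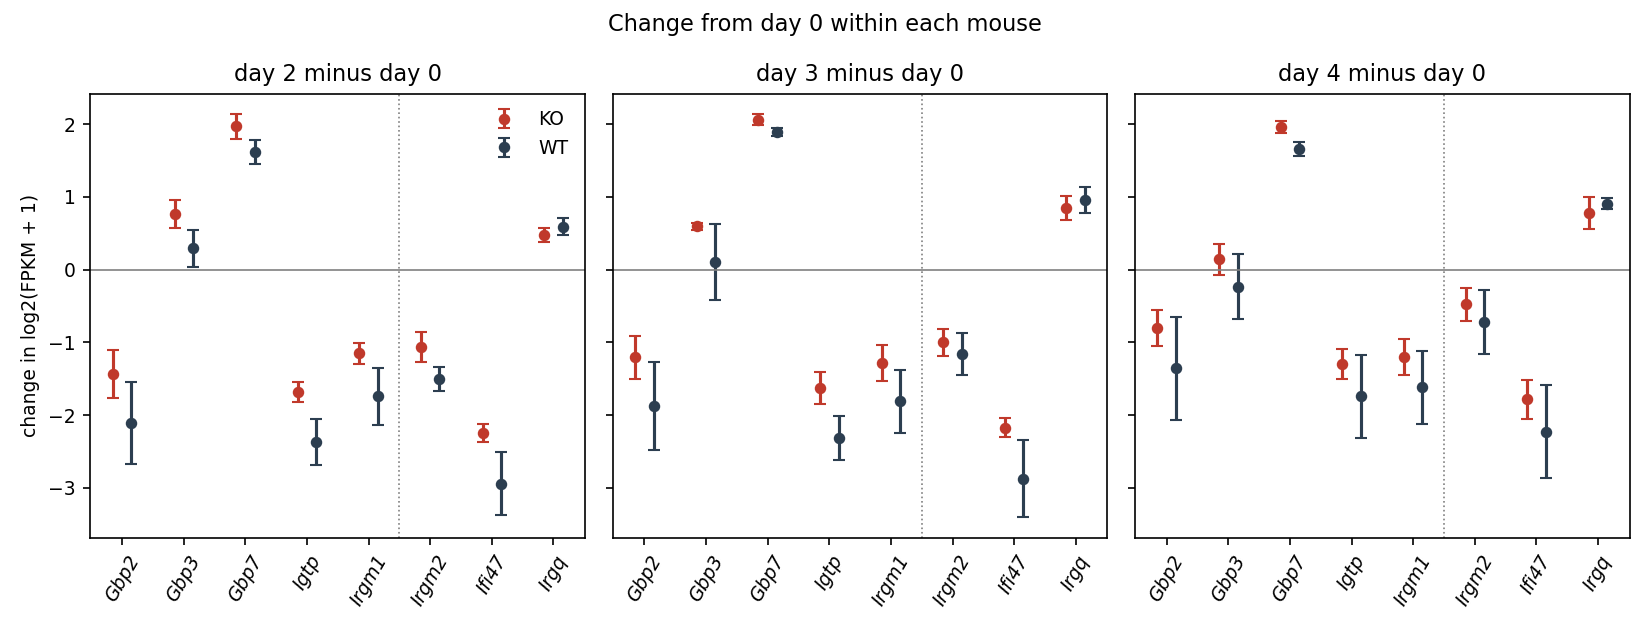
Change in log2(FPKM + 1) from day 0 at days 2, 3 and 4 within each mouse, for the 5 genes (left of the dotted line) and 3 relatives, KO left of WT; points are means and bars the SD of 3 mice. Gbp7 and Irgq lie above 0 in each panel, Gbp2, Igtp, Irgm1, Irgm2 and Ifi47 below it, and Gbp3 near it by day 4.

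The order of the levels changed with RANKL. At day 0 it was Irgm1, Igtp, Gbp2, Gbp3 and Gbp7 in both genotypes, and no neighbours in that order overlapped in range. At day 2 it was Irgm1, Gbp7, Gbp3, Igtp and Gbp2, again without overlap. At day 3 Gbp3 and Igtp overlapped in both genotypes, and Irgm1 and Gbp7 overlapped in KO. At day 4 Igtp stood above Gbp3 again, and Gbp3 and Gbp2 overlapped in both genotypes. FPKM is a value per length of transcript, so these levels compare genes, within the limits of shared sequence named above.

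The summed FPKM of the 5 genes at day 0 was 25.1, 31.8 and 38.5 in KO, against 67.0, 49.3 and 47.3 in WT. At day 4 it was 15.7, 20.4 and 18.7 in KO, against 17.6, 22.7 and 24.8 in WT. Gbp7 made up 1.96 ± 0.473% of that sum in KO and 1.85 ± 0.534% in WT at day 0 (SD, n = 3 each). At day 3 it made up 32.8 ± 3.63% in KO and 31.9 ± 1.38% in WT, and at day 4 29.5 ± 1.62% in KO and 24.4 ± 3.61% in WT. Irgm1 supplied 60.8 ± 1.97% in KO and 58.0 ± 1.60% in WT at day 0, and 42.7 ± 2.61% in KO and 44.2 ± 0.929% in WT at day 4. The share of Igtp at day 0 was 25.4% in KO and 26.0% in WT, and at day 2 it was 9.89% in KO and 9.97% in WT.

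**Figure D3:**
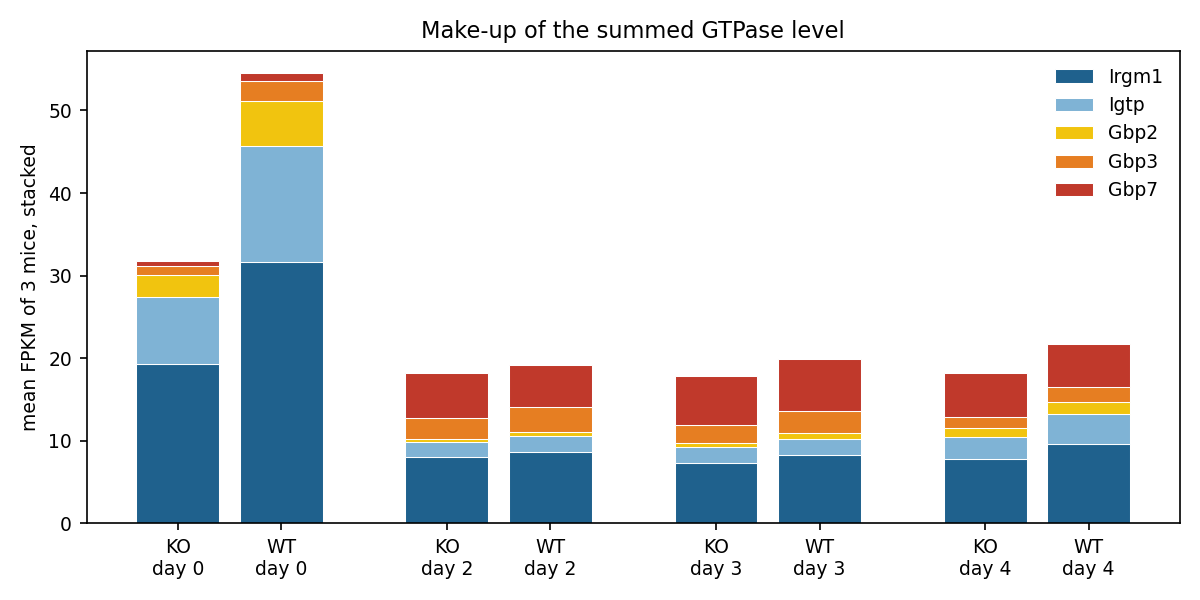
Mean FPKM of the 5 genes stacked by group (n = 3 mice each), KO left of WT within each day. The KO column is shorter than the WT column at day 0, and Gbp7 (top) goes with RANKL from the thinnest layer to the second thickest in both genotypes.

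Set beside interferon-stimulated genes outside the GTPase families (51 of 55 listed genes passed the filter), Gbp7 stood at one end. The genes were selected for that contrast, so it is given as description only. No gene of that list had as large an increase as Gbp7 at days 2, 3 or 4 in either genotype. The median change of the list at day 4 was -0.87 in KO and -1.53 in WT on the log2 scale, against -0.05 in KO and -0.07 in WT over all genes tested. Of all 10081 genes tested, 4898 were higher at day 4 than at day 0 in KO and 4866 in WT. Of the 51, 10 were higher in KO and 5 in WT. The 5 that were higher in both were Cd274, Dtx3l, Eif2ak2, Ifi27l1 and Pnpt1, and the largest increase among the 51 was 0.85 in KO and 0.75 in WT. Among all genes tested a change the size of that of Gbp7 was not rare: 497 genes in KO and 701 in WT had a larger increase at day 4. Gbp2 (-0.80 in KO, -1.36 in WT), Igtp (-1.30, -1.74) and Irgm1 (-1.20, -1.62) lay within the range of the list, and so did Gbp3 (0.14, -0.24). For scale, 38.6% of all genes rose and 40.8% fell between day 0 and day 4 in KO, and 39.2% rose and 42.7% fell in WT (limma, adjusted p below 0.05).

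**Figure D4:**
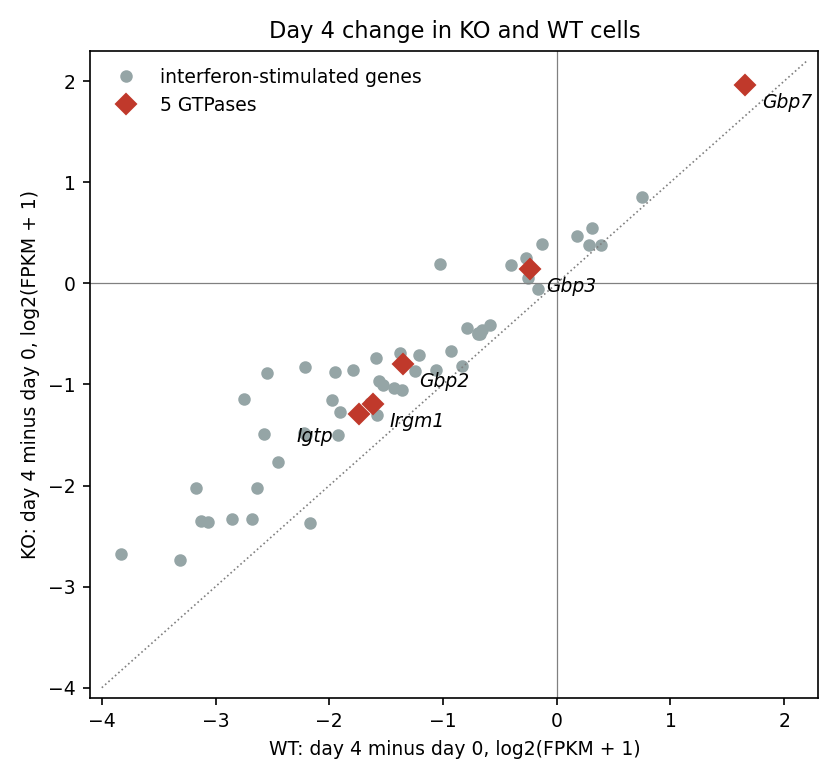
Change in log2(FPKM + 1) from day 0 to day 4 (means of 3 mice), KO on the vertical and WT on the horizontal axis, for 51 interferon-stimulated genes (grey) and the 5 GTPases (red); the dotted line marks equal changes. Gbp7, at 1.96 in KO and 1.66 in WT, lies beyond all grey points, a contrast that was part of the selection, and the other GTPases lie among them.

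Of 24 other GBP and IRG genes listed, 9 were in the table and 5 of those passed the filter (Irgm2, Ifi47, Irgq, Gm12250 and Gm5431). Irgm2, the regulator beside Igtp, measured 2.34, 3.41 and 4.495 FPKM in KO and 5.57, 4.96 and 4.59 FPKM in WT at day 0. At day 4 it measured 1.74, 2.31 and 2.31 FPKM in KO and 1.92, 2.70 and 3.54 FPKM in WT, and it was lower at day 4 in all 6 mice. Ifi47, an effector-type IRG, averaged 14.1 ± 3.78 FPKM in KO and 26.9 ± 5.58 FPKM in WT at day 0, and 3.36 ± 0.935 FPKM in KO and 5.05 ± 1.69 FPKM in WT at day 4 (SD, n = 3 each). Gm12250 (Irgb10), an IRG known in mouse macrophages for breaking open bacteria, was at 1.88 ± 0.822 FPKM in KO and 4.72 ± 0.867 FPKM in WT at day 0, and at 0.0648 ± 0.00817 FPKM in KO and 0.141 ± 0.0357 FPKM in WT at day 2. Gm5431 averaged 1.52 FPKM in KO and 2.25 FPKM in WT at day 0 and was under 0.1 FPKM on average in both genotypes at days 2 and 3. Irgq, a divergent IRG-like gene, was the sole relative past the filter with higher levels at each RANKL day in all mice, at 5.73 ± 0.252 FPKM in KO and 5.98 ± 0.755 FPKM in WT at day 4, against 2.96 ± 0.530 FPKM in KO and 2.74 ± 0.502 FPKM in WT at day 0.

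The other 4 relatives stayed below a group mean of 1 FPKM. Gbp5, the GBP known for its part in the NLRP3 inflammasome, had group means of 0.270 to 0.528 FPKM in KO and 0.329 to 0.679 FPKM in WT. Gbp9 had 0.506 to 0.666 FPKM in KO and 0.594 to 0.934 FPKM in WT. Iigp1, an IRG effector of the Toxoplasma vacuole, had a mean of 0.168 FPKM in KO and 0.540 FPKM in WT at day 0 and below 0.1 FPKM in each group after RANKL. Gm4951 was listed at 0 in most RANKL libraries. No relative in the table had an increase the size of that of Gbp7. Among the relatives with a RefSeq window the ISRE core was found in Gbp5, Irgm2 and Gm12250 and not in Ifi47, Irgq or Gm5431.

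The genotype comparison asks whether STING sets the level of these genes. At day 0, the 5 genes were lower in KO than in WT by 0.27 to 0.81 on the log2 scale, and none passed the threshold. Gbp2 averaged 2.71 ± 1.07 FPKM in KO and 5.48 ± 1.92 FPKM in WT, and Gbp3 averaged 1.11 ± 0.14 FPKM in KO and 2.36 ± 0.789 FPKM in WT (SD, n = 3 each). Igtp averaged 8.01 ± 1.40 FPKM in KO and 14.1 ± 1.99 FPKM in WT, and Irgm1 19.3 ± 4.11 FPKM in KO and 31.6 ± 6.36 FPKM in WT. For these 4 genes all 3 KO values lay below all 3 WT values. The KO mean was 49.3% of the WT mean for Gbp2, 47.0% for Gbp3, 56.9% for Igtp, 61.1% for Irgm1 and 66.3% for Gbp7, whose ranges overlapped.

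In limma's fit over all genes the day 0 log2 differences were -0.81 for Gbp2 (SE 0.311), -0.65 for Gbp3 (SE 0.252), -0.27 for Gbp7 (SE 0.221), -0.75 for Igtp (SE 0.289) and -0.68 for Irgm1 (SE 0.235). The limma adjusted p was 1 for each of the 5. With 10 genes called among 10081, 0.0992% of all genes passed. All genes tested had a median difference of -0.01, and 52.0% of them were lower in KO. Unadjusted, 4 of the 5 had a limma p below 0.05, against 198 of all genes (1.96%). Non-overlapping ranges with KO lower were found in 4 of 5 members, against 3.65% of all genes. For a single gene the exact two-sided permutation test of 3 mice against 3 cannot go below 0.1, which these 4 genes reached, and Gbp7 gave 0.2. Samples were weighted by day in this fit. With equal weights Igtp and Irgm1 passed (limma adjusted p 0.0497 for each) and 38 genes passed in all. Leaving out 1 mouse at a time gave 4 to 11 called genes and none of the 5, with the fewest when KO mouse 481 was left out, where the Gbp7 difference was -0.14.

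The list of 51 other interferon-stimulated genes had a median day 0 difference of -0.70, against -0.68 for the 5 GTPases, and 7 of the 51 fell in KO. Among these were Ifit3 (-2.13, limma adjusted p = 0.000389), Rsad2 (-2.05, 0.0019), Mx1 (-0.97, 0.00459) and Mx2 (-0.82, 0.00896), all antiviral effectors. Gbp2 and Igtp lay near the middle of that list, with 22 and 25 of the 51 genes lower, and Gbp7 near its upper end, with 45 lower. The log2(FPKM + 1) scale narrows the difference of Gbp7, which averaged 0.644 FPKM in KO and 0.971 FPKM in WT at day 0. With a pseudocount of 0.1 its difference was -0.59, against -0.71 for Irgm1 and -1.01 for Gbp2. Its place in the list on that scale was not computed. WT mouse 480 had the highest value of its group for 4 of the 5 genes at day 0, and KO mouse 481 had the lowest of its group for all 5. These were the mice with the highest neutrophil marker sum of each genotype, at 12640 FPKM in KO mouse 481 and 15580 FPKM in WT mouse 480. The neutrophil sums of the genotypes overlapped. The dendritic cell markers summed to 226 to 350 FPKM in KO and 360 to 564 FPKM in WT, mostly through Bst2, which interferon also induces, and without Bst2 to 6.99 to 14.7 FPKM in KO and 5.19 to 13.9 FPKM in WT. Their part in the day 0 differences was not tested.

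**Figure D5:**
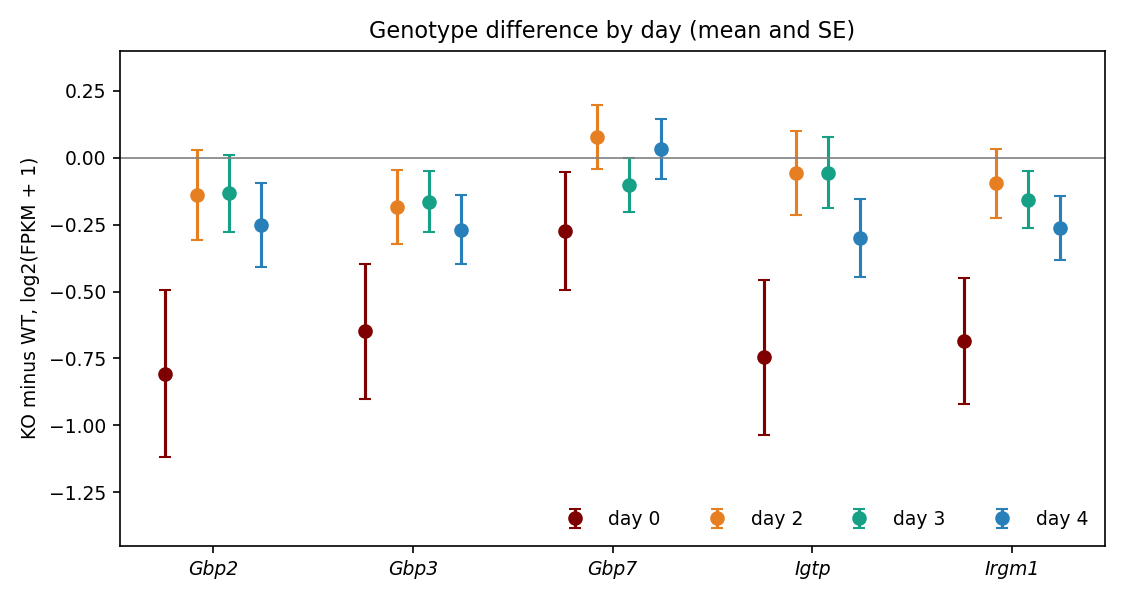
KO minus WT difference in log2(FPKM + 1) of each gene at days 0, 2, 3 and 4, with the SE of limma's fit (n = 3 mice per genotype). The day 0 points of Gbp2, Gbp3, Igtp and Irgm1 lie between -0.81 and -0.65, and the RANKL-day points of all 5 genes lie between -0.30 and 0.08.

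With all mice in the fit, the differences under RANKL were smaller in size than at day 0 for each of the 5, though the interaction with day did not pass for any of them. At day 2 the differences ran from -0.18 (Gbp3) to 0.08 (Gbp7), at day 3 from -0.16 (Gbp3) to -0.06 (Igtp), and at day 4 from -0.30 (Igtp) to 0.03 (Gbp7). The log2(FPKM + 1) scale narrows the difference of Gbp2, which averaged under 1 FPKM at days 2 and 3. Its KO mean was 70.9% of the WT mean at day 2 and 78.1% at day 3. With a pseudocount of 0.1 its difference was -0.39 at day 2 and -0.28 at day 3. None of the 5 passed at any RANKL day (limma adjusted p 0.934 to 1), where 0.0298%, 0.0198% and 0.0298% of all genes were called at days 2, 3 and 4. The ranges of KO and WT overlapped for each of the 5 at each RANKL day. Among all genes 2.27%, 3.51% and 1.64% had every KO value below every WT value at days 2, 3 and 4. The day 4 values moved with single mice. Without WT mouse 480 the difference was -0.53 for Igtp (limma adjusted p = 0.0582) and -0.42 for Gbp2 (adjusted p = 0.245), and 47 genes were called, none of the 5 among them. Without WT mouse 531 it was -0.18 for Igtp, -0.11 for Gbp2, -0.16 for Gbp3 and -0.16 for Irgm1, and without KO mouse 481 it was -0.11 for Gbp2 and -0.16 for Gbp3. At day 4 Gbp3 and Irgm1 had an unadjusted limma p below 0.05 (0.0481 and 0.0383), against 1.7% of all genes. Averaged per mouse over the 3 RANKL days, the difference was -0.17 for Gbp2, -0.21 for Gbp3, 0.0027 for Gbp7, -0.14 for Igtp and -0.17 for Irgm1 (limma adjusted p 1 for each, 0.0198% of all genes called). For Gbp7 the sign at days 3 and 4 and in that average turned when single mice were left out, and for Igtp the sign at days 2 and 3.

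Whether the change from day 0 depended on the genotype was tested as an interaction. The changes at day 2 were less negative or more positive in KO than in WT by 0.67 for Gbp2, 0.46 for Gbp3, 0.35 for Gbp7, 0.69 for Igtp and 0.59 for Irgm1. At day 3 the interaction ran from 0.17 (Gbp7) to 0.69 (Igtp), and at day 4 from 0.31 (Gbp7) to 0.56 (Gbp2). For Gbp2, Gbp3, Igtp and Irgm1 much of the day 4 interaction rested on WT mouse 480. That mouse had the highest day 0 values of its group for these 4 of the 5 genes. Without it the day 4 interaction was 0.15 for Gbp2, 0.15 for Gbp3, 0.11 for Igtp and 0.15 for Irgm1. The day 3 interaction was then 0.32 for Gbp2, 0.19 for Gbp3 and 0.30 for Irgm1, and the day 2 interaction 0.34 for Gbp2 and 0.38 for Irgm1. Without WT mouse 531 it was higher at day 4 for Gbp3 (0.59) and Irgm1 (0.63). None passed the threshold (limma adjusted p 0.906 to 1), where 0.0397%, 0.0694% and 0.0496% of all genes were called at days 2, 3 and 4. Unadjusted, Igtp and Irgm1 at day 2 and Igtp at day 3 had a limma p below 0.05. Of all genes, 1.55% did at day 2 and 3.52% at day 3. The interaction and the day 0 difference use the same day 0 libraries, so the one is not independent of the other.

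None of the 5 relatives past the filter was called in limma's genotype comparisons. Unadjusted, 3 of them had a limma p below 0.05 at day 0, against 1.96% of all genes. Gm12250 came closest at day 0, with a log2 difference of -1.02 (SE 0.247, limma adjusted p = 0.28) and all KO values, 1.01, 2.64 and 2.00 FPKM, below all WT values, 5.36, 3.73 and 5.06 FPKM. Ifi47 (-0.90) and Irgm2 (-0.48) also had no overlap at day 0. Irgq had a difference of 0.08.

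The members fell into groups by their course over the 24 libraries, described here by Pearson's r of log2(FPKM + 1). These libraries share mice and days and separate into day 0 and RANKL days, so r is given also within the 18 RANKL libraries. Gbp2, Igtp and Irgm1 went together, with r of 0.94 to 0.969 over 24 libraries and 0.572 to 0.898 within the RANKL days. Gbp7 ran against them over the 24 libraries (r = -0.788 with Gbp2, -0.886 with Igtp and -0.88 with Irgm1), and within the RANKL days r was 0.177, -0.0736 and 0.104. Gbp3 had r of 0.407 with Gbp7, -0.244 with Gbp2, -0.281 with Igtp and -0.119 with Irgm1 over the 24 libraries. Within the RANKL days these were 0.206, -0.424, -0.351 and 0.3, so the sign with Irgm1 turned.

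The genes outside the families with the most similar course to Gbp7 were Dnmt3a, a DNA methyltransferase (r = 0.991 over 24 libraries, 0.835 within the RANKL days), Mgat4a, an N-glycan branching enzyme (0.987 and 0.74), and Lnx2, a ubiquitin ligase (0.987 and 0.814). Dnmt3a averaged 15.8 FPKM in KO and 16.7 FPKM in WT at day 0 and 48.7 FPKM in KO and 48.1 FPKM in WT at day 4. Those most like Gbp3 were Tor3a (r = 0.782), Il15ra (0.746), a receptor chain for interleukin 15, and Mitf (0.736), a transcription factor of osteoclasts. Within the RANKL days r was 0.605, 0.747 and 0.774. Tor3a is itself on the list of interferon-stimulated genes used above. Mitf, like Gbp3, peaked at day 2, at 32.8 FPKM in KO and 30.7 FPKM in WT, against 13.0 FPKM in KO and 14.9 FPKM in WT at day 0.

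The nearest genes to the other 3 members were all interferon-stimulated. For Gbp2 they were the oligoadenylate synthetases Oas2 (r = 0.986) and Oas3 (0.983) and the transcription factor Irf7 (0.982). For Igtp they were Xaf1 (0.994), Oasl2 (0.991) and Ifi203 (0.991), and for Irgm1 Pyhin1 (0.983), Zbp1 (0.979), a sensor of Z-form nucleic acid, and Cmpk2 (0.979). Within the RANKL days r was 0.944 to 0.95 for the genes nearest to Gbp2, 0.907 to 0.968 for those nearest to Igtp and 0.684 to 0.771 for those nearest to Irgm1. Oas2 averaged 5.06 FPKM in KO and 9.89 FPKM in WT at day 0 and 0.748 FPKM in KO and 1.32 FPKM in WT at day 2, and Zbp1 9.54 FPKM in KO and 28.8 FPKM in WT at day 0 and 0.155 FPKM in KO and 0.292 FPKM in WT at day 2.

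Genes that act on or with GBPs and IRGs were tested between day 4 and day 0, in lists chosen with earlier results of these data known. The counts are to be read against the 38.6% of all genes that rose and 40.8% that fell in KO, and 39.2% and 42.7% in WT. Of 22 interferon receptors and transcription factors tested, 5 rose and 12 fell in each genotype. Irf8, which activates GBP and IRG promoters in macrophages, fell to 6.25 to 7.13 FPKM in KO and 4.83 to 9.49 FPKM in WT at day 4, against 69.6 to 82.0 FPKM in KO and 65.8 to 95.9 FPKM in WT at day 0 (lowest and highest of 3 mice), a log2 change of -3.31 in KO and -3.19 in WT (limma adjusted p 1.2e-09 and 2.12e-09). Irf5 fell by 1.85 in KO and 1.81 in WT, and Socs3, an inhibitor of cytokine receptors, by 0.95 in KO and 1.17 in WT. Irf7 was lower by 1.97 in KO and 2.90 in WT. It is itself interferon-stimulated, and lower levels of such genes entered the selection. The count of 12 that fell is therefore not independent of the selection.

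Of 15 genes of the ATG8 conjugation system that directs GBPs and IRGs to vacuoles, 8 rose and 4 fell in KO and 7 rose and 5 fell in WT. Map1lc3a, an ATG8 protein, rose by 2.10 in KO and 1.51 in WT, and the ligase Traf6 by 1.16 in KO and 1.27 in WT, while Lgals3, a galectin that marks broken vacuoles, fell by 1.49 in KO and 1.80 in WT and Atg7 by 0.77 in KO and 0.80 in WT. Of 12 inflammasome genes 2 rose and 9 fell in KO and 2 rose and 8 fell in WT. Casp4, which encodes mouse caspase-11 and acts downstream of GBPs, rose by 1.65 in KO and 1.29 in WT, while Il1b fell by 2.61 in KO and 2.42 in WT, Pycard by 2.17 in KO and 2.24 in WT and Ninj1 by 1.67 in KO and 1.89 in WT. Of 6 genes for CaaX prenylation, the lipid modification of Gbp2, 3 rose and 3 fell in each genotype. Pggt1b, a subunit of the geranylgeranyl transferase, rose by 1.11 in KO and 1.19 in WT, and Rce1, the protease that trims prenylated proteins, fell by 1.30 in KO and 1.47 in WT. Among the 6 oxidase and vacuole partners 2 rose and 3 fell in KO and 2 rose and 4 fell in WT, with Rac2 up by 1.60 in KO and 1.48 in WT, Ncf4 up by 1.52 in KO and 1.33 in WT, while Ncf1 fell by 1.78 in KO and 1.69 in WT. Neutrophils also express the oxidase genes and Il1b, and their marker sums moved with day 0 as given above. None of the genes of these 5 lists was called by limma between KO and WT at any day; unadjusted, 3 of the 22 receptors and transcription factors had a p below 0.05 at day 0, none at day 2, 2 at day 3 and 4 at day 4, against 1.96%, 1.01%, 3.55% and 1.7% of all genes.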

How the data were processed

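RNA-seq of 24 samples was deposited as 1 table of FPKM per gene and library. Per the submitters' processing notes, the authors used the build mm10, HISAT2 2.0.5, Cufflinks 2.2.1 and Cuffdiff. Annotation, strandedness, treatment of multi-mapping reads and the rule that selected the 10721 genes are stated nowhere in the labels. All 24 value columns were matched to a genotype, day and mouse. FPKM are not counts, so log2(FPKM + 1) was tested with limma 3.58.1 in R 4.3.3. The fit had 1 mean per genotype and day (16 residual degrees of freedom), a mean-variance trend and sample weights by day (0.355, 1.203, 1.696 and 1.382 for days 0, 2, 3 and 4), and equal weights were an alternative. The 10081 genes whose mean reached 1 FPKM in 1 or more groups entered the fit. Two-sided p-values were adjusted within each comparison (Benjamini-Hochberg, threshold 0.05). The average over the RANKL days used 1 mean per mouse. P-values of the main fit set a difference against the spread of libraries within groups, pooled over the 8 groups. Those of the average over the RANKL days use the spread between mice. Libraries of 1 mouse on different days are paired by animal: their deviations from group means had a median correlation of 0.261 in KO and 0.136 in WT, over 18 pairs each. The main fit had no term for mouse, so its interaction and day 4 against day 0 tests did not use this pairing. In its genotype tests the 16 residual degrees of freedom likewise count libraries of 1 mouse as independent. Transcripts were compared with blastn 2.17.0. The members, lists and tests were chosen with earlier results of these data known. The text names the 5 members, their relatives in the table, the 3 genes outside the families with the highest Pearson r to each member, up to 4 genes per pathway list with the smallest adjusted p, and marker lists by their sums; Cd274, Dtx3l, Eif2ak2, Ifi27l1 and Pnpt1 were named after their values were seen. Other alternatives were a mouse block, leaving out each mouse, median scaling, a pseudocount of 0.1, a 5 FPKM filter, no filter and a fit of the compared groups alone. Some genes of the lists are not reported here.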

Additional observations from a re-analysis of the deposited data

Results flagged for a closer look

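Gbp5 moved in opposite directions in the genotypes between day 0 and day 2. It was higher at day 2 in all 3 KO mice (mean log2 change 0.18) and lower in all 3 WT mice (mean -0.19). The difference was not tested, since Gbp5 stayed below the filter, and its levels at both days were under 1 FPKM.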

How the results depend on the processing

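With equal sample weights 2 of the 5 members (Igtp and Irgm1) were called at day 0. Under the other alternatives run, none of the 5 was called in any genotype comparison or interaction, and all 5 day 0 differences stayed negative. Of the recomputed member differences, 501 kept their direction and side of the threshold and 9 changed sign, all of them when 1 mouse was left out. Leaving out 1 mouse at a time, the Igtp difference ran from -0.14 to 0.0092 at day 2 (positive without KO mouse 481) and from -0.14 to 0.0010 at day 3 (positive without KO mouse 532). The Gbp7 difference ran from -0.23 to 0.0099 at day 3 (positive without KO mouse 481), from -0.022 to 0.14 at day 4 and from -0.077 to 0.086 over the RANKL days (both negative without KO mouse 528, KO mouse 532 or WT mouse 480). The causes were not tested.

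Counts of all genes called were small and moved with the settings. At day 0, with 10 called, a pseudocount of 0.1 gave 2, a filter at 5 FPKM 6, equal weights 38, only the groups compared 3, and leaving out 1 mouse 4 to 11. At day 2 (3 called) median scaling gave 5, equal weights 1, only the groups compared 1 and leaving out 1 mouse 1 to 4. At day 3 (2 called) equal weights gave 1 and leaving out 1 mouse 2 to 3. At day 4 (3 called) equal weights and only the groups compared gave 1 each, and leaving out 1 mouse 1 to 47, the 47 without WT mouse 480. Over the RANKL days (2 called) leaving out 1 mouse gave 1 to 3. For the interactions (4, 7 and 5 called at days 2, 3 and 4), the pseudocount of 0.1 gave 1, 1 and 0, the 5 FPKM filter gave 3 at day 3 and 1 at day 4, equal weights gave 7 at day 2, only the groups compared gave 4 at day 3 and 1 at day 4, and leaving out 1 mouse gave 1 to 4, 2 to 5 and 0 to 2. With mouse as a random replicate block the counts at days 0, 2, 3 and 4 were 10, 4, 2 and 2, and the block changed no call of a member. Gbp3 gave no value with the 5 FPKM filter. Depth is unknown, and its limit on low levels was not computed. Leaving out each mouse in the count of members with all KO below all WT at day 0, an alternative chosen after seeing the data, gave 4 or 5 of 5. That count could not fall below 4, since leaving out a mouse cannot make separate ranges overlap, so it is no check of the result.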
